A study of Mus musculus with 12 samples.

Results

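Serpins are a superfamily of proteins, most of which trap and inactivate serine or cysteine proteases, each serpin molecule trapping a single protease molecule. A flexible reactive-centre loop is presented as bait, and the protease that cleaves it is locked to the serpin and distorted. The liver secretes many of them into plasma, where they restrain neutrophil elastase, thrombin, plasmin and the proteases that start the complement cascade, while a few members carry hormones or act as chaperones and inhibit nothing.

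The 32 serpin genes described here were chosen by symbol (Serpin, a clade letter from a to i, and a number) and by a measured value, a mean raw count of at least 5 over the 6 libraries that compare high-fat diet with and without vehicle. They were 32 of 50 matching symbols and of 26015 genes in that table, and 15391 genes of the table reached that mean. Serpini1 (mean raw count 5.83), Serpina3i (12.3) and Serpina3h (15.3) lay just inside the threshold, and Serpina3c (4), Serpinb7 (3.33) and Serpina3b (3.33) just outside it. By clade there were 19 genes of clade A, 5 of clade B, 2 of clade F and 1 each of clades C, D, E, G, H and I.

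The study sequenced liver RNA of C57BL/6N mice, 3 per group: regular chow without treatment (replicates 8, 17 and 19), high-fat diet (HFD) without treatment (4, 30 and 38), HFD with the vehicle of 30% DMSO in corn oil (15, 23 and 55), and HFD with PCN (5, 11 and 27). Both diets began at 6 weeks of age and ran for 15 weeks. PCN, pregnenolone 16α-carbonitrile, is a steroid agonist of the rodent pregnane X receptor, a sensor of foreign chemicals in hepatocytes; 50 mg/kg of it, or the vehicle, was given into the peritoneum once daily for 4 days. The chow group thus differed from the vehicle and PCN groups in diet and in injection at once, and no group received PCN on chow. Values below are read counts divided by a size factor on 1 scale for the 12 libraries, called normalized counts, with mean ± SD and n = 3 per group; a fold is a ratio of 2 group means.

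Counts for all 32 serpins were at hand in the HFD and vehicle libraries only. The other 5 comparisons list only genes past a deposited adjusted p of 0.05, so chow counts existed for 18 serpins and PCN counts for 16, each because the gene was called in at least 1 comparison with that group, and 13 had counts in all 12 libraries. A serpin missing from a comparison was therefore either not called or not tested there. Summed counts ran from 7466378 (HFD replicate 38) to 38161486 (HFD replicate 4) in the 6 complete libraries, and totals estimated from size factors ran from 11700000 to 36100000 in the others. The 32 serpins took 1.19% to 2.59% of all counts, least in HFD replicate 38 and most in vehicle replicate 15. Summed normalized counts of 9 hepatocyte markers were lowest in vehicle replicate 55 (1736620) and HFD replicate 38 (1800360) and ran from 2353620 to 2499730 in the other 4. Macrophage markers (12 of 12 found) summed to 7639 to 12191 in HFD and 5280 to 8011 in vehicle libraries, stellate-cell markers (12 of 12) to 10224 to 13447 and 5746 to 10097, endothelial markers (10 of 10) to 8553 to 9472 and 5151 to 7997, and the neutrophil markers Ly6g, Mpo and Elane were at 0 in at least 1 library. By the deposited calls between HFD and chow, 7 of 12 macrophage markers (among them Adgre1, C1qa and Trem2) and 5 of 12 stellate-cell markers (among them Col1a1 and Pdgfrb) were higher in HFD, and 2 of the 9 hepatocyte markers (Apoa1 and Hnf4a) were lower. Between PCN and chow 2 macrophage and 5 stellate-cell markers were higher with PCN and 5 hepatocyte markers lower (Alb, Apob, Ttr, Cps1 and Hnf4a), and between vehicle and chow only the stellate-cell marker Timp1 was called in these 3 lists. Between PCN and HFD the hepatocyte marker Ttr and the stellate-cell markers Col1a1 and Col1a2 were lower with PCN. Of the 10 endothelial markers, Lyve1 and Cdh5 were called lower in vehicle, at 0.42 and 0.578 of the HFD mean, and 0 higher. Lyve1 was also lower with PCN than in HFD. In HFD against chow Lyve1 was higher and Kdr lower, and Fcgr2b was lower with PCN than in chow. The part of these shifts in the results below was not tested, and in whole liver fewer cells of a type and less RNA per cell cannot be told apart.

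Per kilobase of annotated exon, Serpina3k, a member of the mouse α1-antichymotrypsin-like group, had the highest level of the 32 genes in the 6 complete libraries, and it alone took 0.208% to 0.767% of all counts. It was followed by Serpina1c, Serpina1b, Serpina1d, Serpina1e, Serpina3n, Serpina3m and Serpina1a, all copies of 2 expanded subfamilies. The inhibitors of complement and coagulation came next (Serping1, Serpinf2, Serpind1 and Serpinc1), and the intracellular clade B genes were far lower. The libraries of neighbours in this order overlapped widely, so the order within each block is not resolved beyond the spread of samples. The order also depends on the exon length, which merges all annotated transcripts of a gene. That length was 8546 bases for Serpinc1 and 2064 for Serpina3n. Before division by length, Serpinc1 had the higher mean raw count of these genes, 36198 against 21921.

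**Figure D1:**
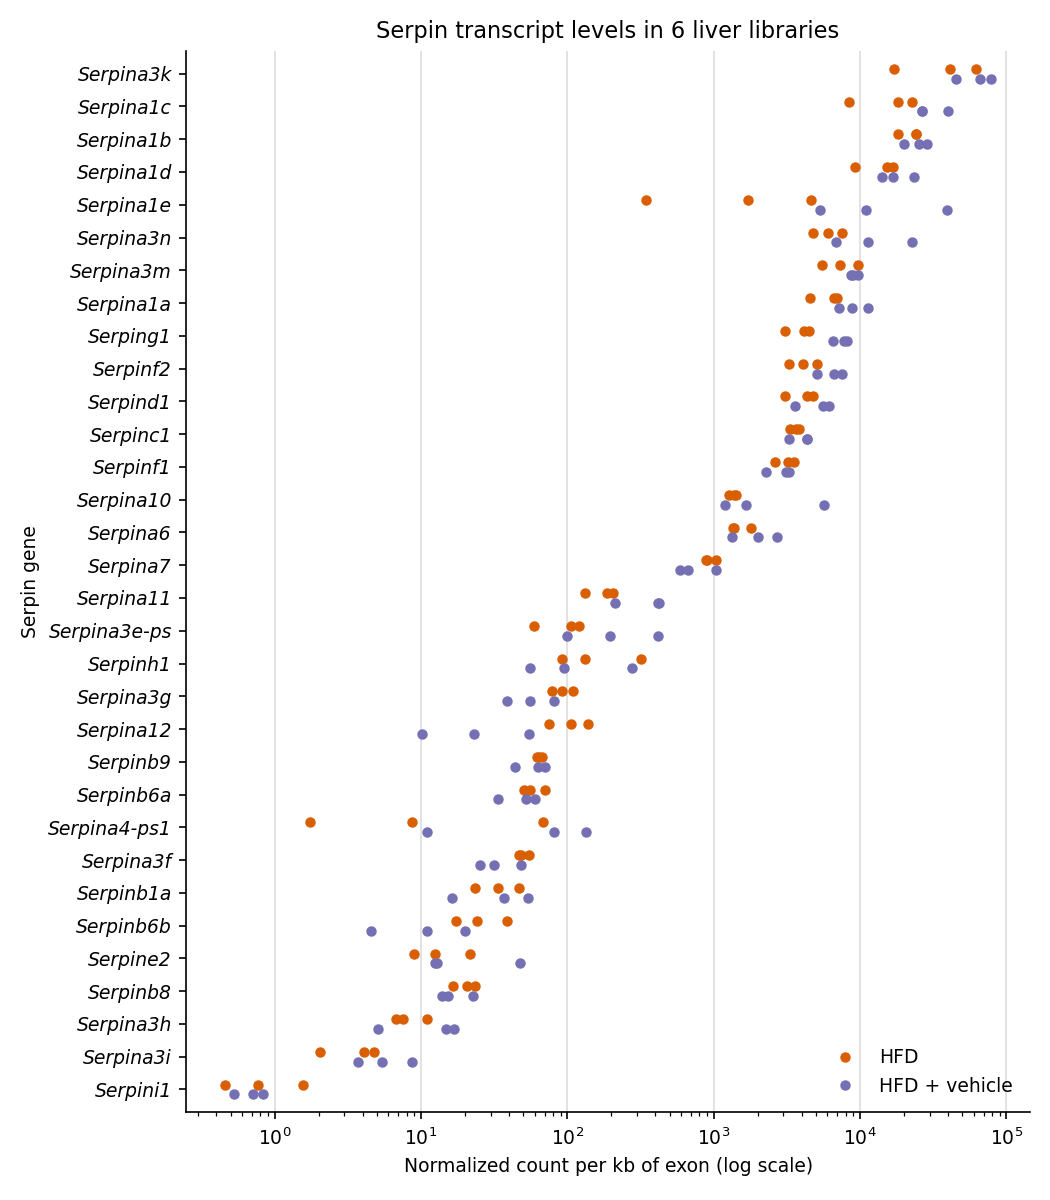
Normalized count per kilobase of exon (x axis, log scale) of the 32 serpin genes in the 3 HFD and 3 vehicle libraries, 1 point per library, ordered by the mean of the 6 libraries. Serpina3k is at the top, Serpini1 at the bottom, and Serpina1e and Serpina4-ps1 have the widest spread among libraries.

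Of the 32 genes, 18 of the clade A members lie together on chromosome 12 between 103614786 and 104414329 (GRCm38), 4 clade B members lie on chromosome 13, and Serpinf1 and Serpinf2 are neighbours on chromosome 11, 9030 bases apart. Serpina7 is on chromosome X. In GENCODE M21, which has the same span for 31 of the 32 genes, Serpina3e-ps and Serpina4-ps1 are unprocessed pseudogenes and Serpina3h a transcribed one. The gene span of Serpina1b contains Serpina1d, and that of Serpina3m contains Serpina3k, both on the same strand, so how reads were split between them is uncertain.

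In all, 21 of the 32 genes had a deposited DESeq2 adjusted p under 0.05 in at least 1 of the 6 comparisons (background 19.9% of the 15391 genes past the mean count), and 11 had none (Serpina10, Serpina1b, Serpina3f, Serpina3h, Serpina3i, Serpinb6a, Serpinb6b, Serpinb8, Serpind1, Serpinh1 and Serpini1). Between HFD and chow 12 serpins were called, 4 higher and 8 lower in HFD, against 7.91% of the 15391 genes past that mean count (4.59% higher and 3.32% lower), with the marker shifts given above in the same samples. Between vehicle and chow 8 were called, 6 higher and 2 lower (background 5.11%, with 2.85% higher and 2.26% lower), and between PCN and chow 9, of which 2 were higher and 7 lower (12.9%, with 7.03% and 5.89%). Between PCN and untreated HFD 5 were called, 2 higher and 3 lower (5.16%, with 3.09% and 2.07%), and between PCN and vehicle 5, all lower with PCN (2.83%, with 1.75% higher and 1.08% lower). Comparisons that share a group share its 3 samples. When the listed counts were tested again with edgeR and adjusted over the estimated number of genes the authors tested, the calls fell to 2 (Serpina7 and Serpine2), 0, 5 (Serpina12, Serpina4-ps1, Serpinb1a, Serpinb9 and Serpine2), 2 (Serpina12 and Serpina7) and 0 in that order of comparisons, and every gene the authors called had an unadjusted edgeR p under 0.05. Below, rose and fell refer to the deposited calls.

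The complete table gave another picture for vehicle against untreated HFD. There edgeR's quasi-likelihood test called 0 of the 31 serpins it kept (background 0.00726% of 13775 genes), with 10 at an unadjusted p under 0.05, 8 higher and 2 lower (background 12.5%), while the deposited DESeq2 results called 2 of 32, Serping1 higher and Serpina12 lower (background 1.34%, with 0.474% higher and 0.864% lower). The 2 groups did not overlap in 7 of 32 serpins (background 18.8%). The median edgeR log2 change was 0.387 over the 31 serpins, 21 higher and 10 lower, and 0.0194 over all genes kept.

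**Figure D2:**
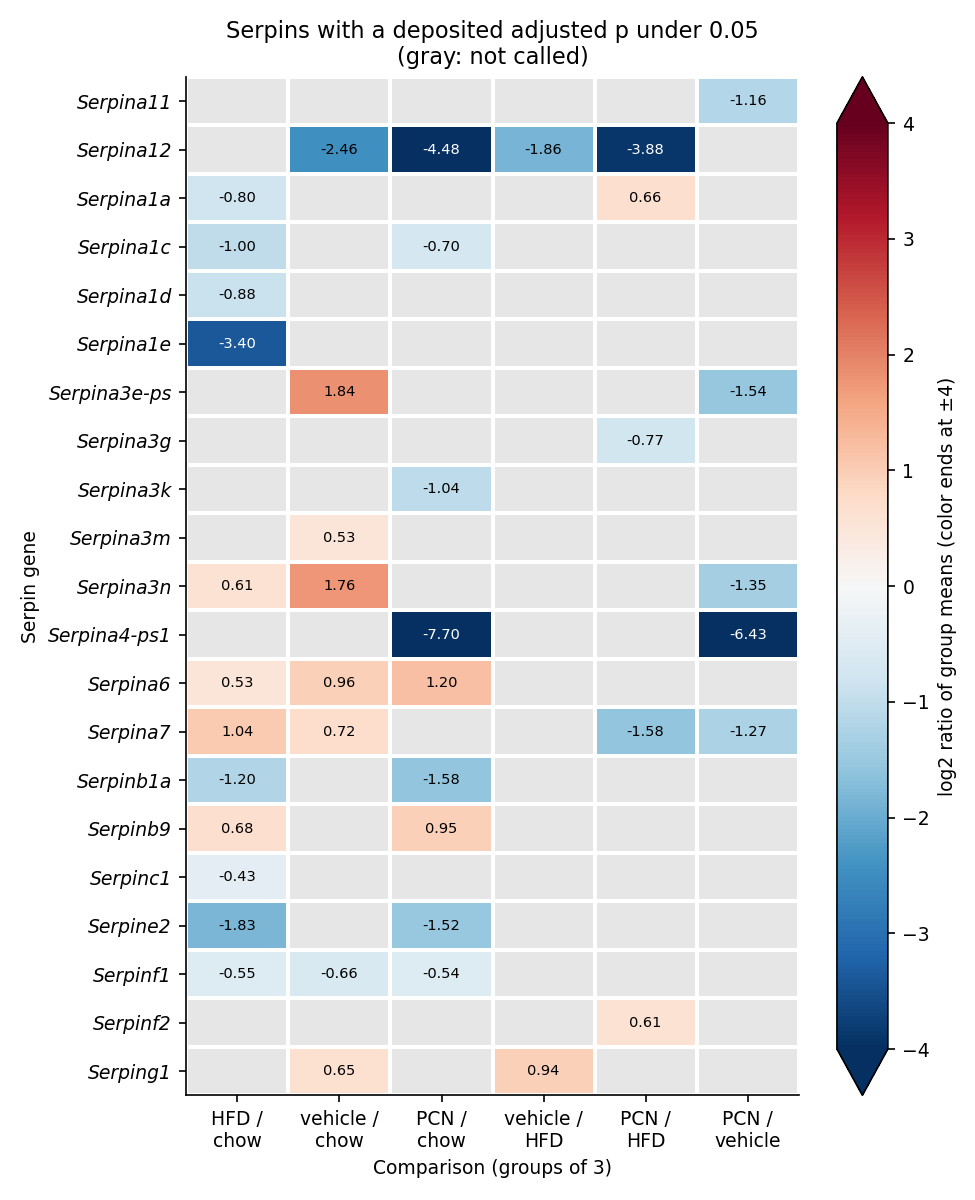
Log2 ratio of group means (color and printed value) for the 21 serpins with a deposited adjusted p under 0.05 in at least 1 of the 6 comparisons, with gray where a gene was not called. The 5 calls between PCN and vehicle are all lower with PCN, and 8 of the 12 between HFD and chow are lower in HFD.

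Serpina1a to Serpina1e are 5 gene copies in this mouse strain background that encode forms of α1-antitrypsin. That name belongs to the main plasma inhibitor of neutrophil elastase. Which protease the form from each copy inhibits was not measured here. The copies share their coding sequence at 96.3% to 98.5% identity over 1239 bases, and differ at 19 to 46 bases per pair, some of them in the reactive-centre loop. The stretch of 81 coding bases that starts at the loop's hinge (coding bases 1087 to 1167, minus strand, GRCm38) is shown because it encodes the part of the protein that meets the protease; capitals mark bases that differ from Serpina1a. It lies at chr12:103853750-103853830 in Serpina1a, chr12:103728317-103728397 in Serpina1b, chr12:103895087-103895167 in Serpina1c, chr12:103763755-103763835 in Serpina1d and chr12:103947093-103947173 in Serpina1e, in 1 exon each.
Serpina1a: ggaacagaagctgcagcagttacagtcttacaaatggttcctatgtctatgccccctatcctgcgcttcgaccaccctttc
Serpina1b: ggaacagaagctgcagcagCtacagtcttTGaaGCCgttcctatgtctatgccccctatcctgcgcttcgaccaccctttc
Serpina1c: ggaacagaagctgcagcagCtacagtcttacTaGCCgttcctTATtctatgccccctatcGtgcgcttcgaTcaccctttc
Serpina1d: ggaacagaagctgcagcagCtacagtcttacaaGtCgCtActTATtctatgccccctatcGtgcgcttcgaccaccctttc
Serpina1e: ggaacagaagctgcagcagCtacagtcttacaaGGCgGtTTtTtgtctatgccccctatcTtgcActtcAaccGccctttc
Serpina1b, Serpina1c, Serpina1d and Serpina1e differed from Serpina1a there at 6, 10, 9 and 12 bases. Of all 50-base windows of the coding sequence, 25.3% of Serpina1c, 25.5% of Serpina1a, 49% of Serpina1d, 55.3% of Serpina1b and 61% of Serpina1e occurred in no other copy, so Serpina1a and Serpina1c counts rest on the smallest unique share and Serpina1e on the largest. The counting of reads that fit several copies is not given in the sources used here.

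In promoter sequence, too, the 5 copies were close to identical. Sequences from RefSeq (GRCm38.p6, 250 bases before to 50 after each start) matched for 23 of the 32 serpins. The HNF1 half-site GTTAAT, searched on both strands, occurred in 7 of these 23 (30.4%: the 5 Serpina1 copies, Serpina7 and Serpinb8) and in 7.2% of 27025 promoters of the same length. The 5 Serpina1 matches lie in near-identical sequence and are not independent, so the 30.4% cannot be read as an excess. The 150 bases before the start are shown for 3 copies and for Serpina7, the genes of this motif group that the results turn on, with the half-site in capitals (minus strand, chr12:103863620-103863769, chr12:103904951-103905100, chr12:103956898-103957047 and chrX:139085237-139085386).
Serpina1a: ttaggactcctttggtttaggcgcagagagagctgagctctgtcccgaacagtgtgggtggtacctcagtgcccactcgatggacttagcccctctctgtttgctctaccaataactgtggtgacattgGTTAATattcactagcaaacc
Serpina1c: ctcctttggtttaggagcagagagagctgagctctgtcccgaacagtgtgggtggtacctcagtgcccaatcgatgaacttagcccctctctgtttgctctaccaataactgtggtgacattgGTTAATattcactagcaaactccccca
Serpina1e: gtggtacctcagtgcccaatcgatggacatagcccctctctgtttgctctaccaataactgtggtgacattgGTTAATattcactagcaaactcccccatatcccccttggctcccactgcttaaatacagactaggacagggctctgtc
Serpina7: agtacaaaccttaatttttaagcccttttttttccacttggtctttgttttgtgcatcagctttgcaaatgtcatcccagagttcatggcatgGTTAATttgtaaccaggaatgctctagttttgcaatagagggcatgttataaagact
The half-site began 78 bases before the annotated start in Serpina1e and 16 to 27 bases before it in the other 4 copies. Once the windows were aligned with free ends, Serpina1e shared 95.2% to 97.6% of 239 to 250 bases with each other copy, and the other 4 shared 91.4% to 94.9% among themselves over 290 to 300 bases. A STAT motif, TTCNNNGAA, searched on both strands (it reads the same on each), occurred in 5 of 23 serpin promoters (21.7%: Serpina11, Serpina3f, Serpina3g, Serpina3i and Serpinb6a) and in 8.47% of all. Serpina3f, Serpina3g and Serpina3i are copies of the same subfamily, so their matches are not independent either. The HNF4 sequence CAAAGTCCA occurred in 0 of 23 and in 0.477% of all. Binding at these matches was not measured here.

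The 5 copies did not move by the same amount. Serpina1e, the copy that differed most in the loop, varied far more than the rest. Its normalized counts were 16272, 57783 and 40766 in chow, 2771, 7539 and 557 in HFD, and 63403, 8591 and 17892 in vehicle replicates 15, 23 and 55. Every HFD sample lay below every chow and every vehicle sample, and the HFD samples themselves differed widely. Serpina1e fell 10.6-fold from chow to HFD (adjusted p = 0.0401 in the authors' deposited table), but the retest by edgeR did not call it (adjusted p = 0.17). The fold was 23 without HFD replicate 30, the highest HFD sample. It is smaller without chow replicate 17, the highest chow sample, or without HFD replicate 38, the lowest HFD sample. Between vehicle and HFD the ratio was 8.27-fold with a log2 change of 3.05 ± 0.997 (SE) and an edgeR adjusted p of 0.309, and the log2 change was 1.88 without vehicle replicate 15 and 4.15 without HFD replicate 30. With no filter on low counts edgeR called it (adjusted p = 0.00658). Serpina1e thus made up 0.724% to 5.67% of the counts of the 5 copies in HFD and 5.88% to 26.3% in vehicle.

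Serpina1a had normalized counts of 16390, 20760 and 20732 in chow, 12128, 12846 and 8354 in HFD, 20804, 16288 and 13176 in vehicle, and 20058, 17009 and 15603 with PCN. The HFD samples lay below all 9 others. It fell 1.74-fold from chow to HFD (adjusted p = 0.00197 in the authors' deposited table) and was 1.58-fold higher with PCN than in untreated HFD (0.0363 in the same table); in the edgeR retest the adjusted p values were 0.183 and 0.441. Serpina1c had 38618, 47810 and 48702 in chow, 24914, 31082 and 11426 in HFD, 54664, 36322 and 36257 in vehicle, and 29936, 30397 and 23070 with PCN. It fell 2-fold from chow to HFD (adjusted p = 0.0231 in the authors' deposited table) and was 1.62-fold lower with PCN than in chow (0.000529 in that table), with the PCN samples inside the HFD range. Serpina1d had 30402, 37934 and 37687 in chow, 21334, 23516 and 12854 in HFD, and 32419, 23446 and 19679 in vehicle. It fell 1.84-fold from chow to HFD (adjusted p = 0.00439 in the authors' deposited table), with no overlap between those groups, while its vehicle and HFD samples overlapped.

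Serpina1b was the copy with no call in any comparison and took the largest part of the 5 copies' counts in all 6 complete libraries, from 28.9% to 56.8%. Its normalized counts were 58730, 58028 and 43684 in HFD and 69746, 61359 and 48032 in vehicle, and the edgeR log2 change was 0.155 ± 0.22 (SE; adjusted p = 0.784). By count, 4 of the 5 copies fell from chow to HFD by the deposited calls, and 3 of the 5 (Serpina1a, Serpina1c and Serpina1e) did not overlap between vehicle and HFD without passing edgeR's adjusted threshold. Whether the copies' changes differ from each other was not tested.

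**Figure D3:**
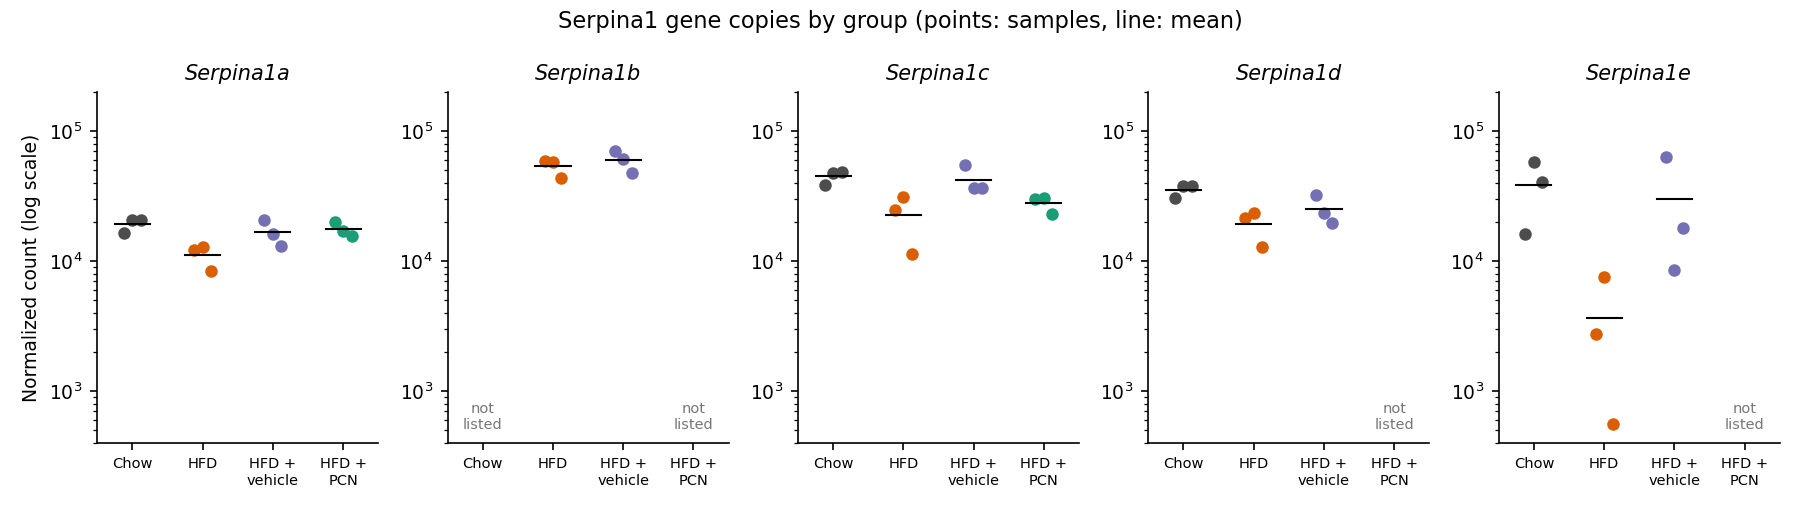
Normalized counts (y axis, log scale) of the 5 Serpina1 copies by group, 1 point per sample and a line at the group mean; "not listed" marks groups for which no counts were at hand. Serpina1e spans from 557 to 63403, while Serpina1a stays between 8354 and 20804.

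The Serpina3 genes descend from 1 ancestor of α1-antichymotrypsin and form a row of copies beside the Serpina1 genes; Serpina3n, which inhibits cathepsin G, elastase and granzyme B, is a classical acute-phase gene. Serpina3n had 8741, 7185 and 9004 normalized counts in chow, 12531, 15636 and 9871 in HFD, 23455, 14227 and 46891 in vehicle, and 10102, 8953 and 14033 with PCN. All HFD and vehicle samples were above all chow samples, and all PCN samples were below all vehicle samples, with vehicle replicate 55 far above the rest. It rose 1.53-fold from chow to HFD (adjusted p = 0.0294 in the authors' deposited table), was 3.39-fold higher in vehicle than in chow (0.022 in that table) and 2.56-fold lower with PCN than with vehicle (0.0205). Against untreated HFD the vehicle mean was 2.22-fold higher with overlapping samples and an edgeR adjusted p of 0.348 (log2 change 1.16, and 0.56 without vehicle replicate 55), and its PCN samples lay within or below the HFD range.

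The pseudogene Serpina3e-ps followed a like course at a low level. How reads that fit several Serpina3 copies were counted is not known. Whether reads from Serpina3n contributed to the Serpina3e-ps counts was not tested. Its normalized counts were 90.1, 59.9 and 93.6 in chow, 131, 148 and 72.4 in HFD, 240, 121 and 510 in vehicle, and 98.5, 70.4 and 130 with PCN. It was 3.58-fold higher in vehicle than in chow (adjusted p = 0.00135 in the authors' deposited table) and 2.91-fold lower with PCN than with vehicle (0.0421 in that table). Without vehicle replicate 55 these folds were 2.23 and 1.81, and with all libraries the PCN and vehicle samples overlapped.

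Serpina3k, whose product is also known as kallikrein-binding protein, had 177219, 231667 and 198687 normalized counts in chow, 85293, 128170 and 35103 in HFD, 162789, 93781 and 135395 in vehicle, and 120499, 67538 and 107793 with PCN. Chow samples were the highest of all 12. It was 2.05-fold lower with PCN than in chow (adjusted p = 2.92e-05 in the authors' deposited table) but not called between HFD and chow, although all HFD samples lay below all chow samples. Its neighbour Serpina3m had 11889, 9673 and 11024 in chow, 12526, 16675 and 9479 in HFD, and 16747, 14898 and 15332 in vehicle. It was 1.44-fold higher in vehicle than in chow (adjusted p = 0.00936 in the authors' deposited table), with no overlap.

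Serpina3g, an intracellular inhibitor of cysteine cathepsins in immune cells, had 193, 165 and 229 normalized counts in HFD, 170, 117 and 80.9 in vehicle, and 120, 105 and 120 with PCN. It was 1.7-fold lower with PCN than in untreated HFD (adjusted p = 0.0259 in the authors' deposited table, 0.139 by edgeR) with no overlap. The summed macrophage markers given above, which cover no PCN library, were lower in 1 vehicle library than in all HFD libraries. Between PCN and HFD, 0 of the 12 macrophage markers were called. The part of macrophages in the Serpina3g values was not tested. Serpina3f, at a mean of 114 ± 9.13 in HFD and 80.3 ± 26.7 in vehicle, Serpina3h and Serpina3i were called in no comparison and overlapped between vehicle and HFD.

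A pair of clade A serpins carries hormones and does not inhibit proteases. Serpina6, corticosteroid-binding globulin, had 1671, 2095 and 1738 normalized counts in chow, 2383, 3149 and 2415 in HFD, 3562, 4800 and 2361 in vehicle, and 5590, 4590 and 2469 with PCN. Every sample on HFD, injected or not, was above every chow sample, with vehicle replicate 55 and PCN replicate 27 the lowest of their groups. It rose 1.44-fold in HFD, 1.95-fold in vehicle and 2.3-fold with PCN, each against chow (adjusted p = 0.0304, 0.00485 and 5.42e-05 in the authors' deposited table); the edgeR retest gave 0.252, 0.197 and 0.065. None of the 3 comparisons among HFD groups called it.

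Serpina7, thyroxine-binding globulin, had 1104, 1262 and 1022 normalized counts in chow, 2183, 2210 and 2555 in HFD, 1437, 1625 and 2522 in vehicle, and 568, 1039 and 714 with PCN. The HFD samples were tightly grouped at 2.05-fold the chow mean (adjusted p = 2.27e-11 in the authors' deposited table, 0.0304 by edgeR). The vehicle samples were above all chow samples at 1.65-fold (0.042 in the authors' deposited table) and overlapped HFD. PCN samples were below every HFD and vehicle sample, 2.99-fold below HFD (1.66e-09 in the authors' deposited table, 0.0348 by edgeR) and 2.41-fold below vehicle (0.00217 in that table, 0.22 by edgeR). Against chow the PCN mean was not called, and the samples overlapped. Serpina6 and Serpina7 were thus both higher in HFD than in chow, and only Serpina7 of the 2 was called lower with PCN; the difference between their PCN responses was not tested.

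The serpins of coagulation, fibrinolysis and complement include Serpinc1, Serpind1, Serpina10, Serping1 and Serpinf2. Serpinc1, antithrombin, which inactivates thrombin and factor Xa, had 39860, 41902 and 43100 normalized counts in chow, 32740, 31253 and 28594 in HFD, and 37284, 36911 and 28088 in vehicle. It fell 1.35-fold from chow to HFD (adjusted p = 0.00292 in the authors' deposited table, 0.679 by edgeR), with no overlap. Serpind1, heparin cofactor II, had 9478, 10515 and 6709 in HFD and 13461, 12289 and 7841 in vehicle, overlapping and called nowhere. Serpina10, the inhibitor of factor Xa that needs protein Z, had 4462, 4853 and 4948 in HFD and 5843, 4181 and 20020 in vehicle. Its vehicle mean was 2.11-fold higher, with 1 library far above the others; without vehicle replicate 55 the edgeR log2 change was 0.06 instead of 1.08.

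Serping1, the C1 inhibitor, which blocks complement C1r and C1s, plasma kallikrein and factor XIIa, was called in both comparisons of vehicle with an uninjected group. Its normalized counts were 10940, 11256 and 10969 in chow, 9708, 10397 and 7103 in HFD, and 18169, 15159 and 18875 in vehicle. All vehicle samples lay above all HFD and chow samples, 1.92-fold above HFD and 1.57-fold above chow by their means. Counts with PCN were not at hand for Serping1. The adjusted p values were 0.000806 and 0.000228 in the authors' deposited table, and edgeR gave 0.163 and 0.158, and 0.0382 for vehicle against HFD with no filter on low counts. Serpinf2, α2-antiplasmin, had 9517, 11797 and 7648 in HFD, 15480, 11884 and 17489 in vehicle, and 16330, 14425 and 13583 with PCN. It was 1.53-fold higher with PCN than in HFD (adjusted p = 0.0414 in the authors' deposited table). Vehicle was 1.55-fold above HFD with no overlap, though by a narrow margin, and was not called (edgeR adjusted p = 0.328).

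**Figure D4:**
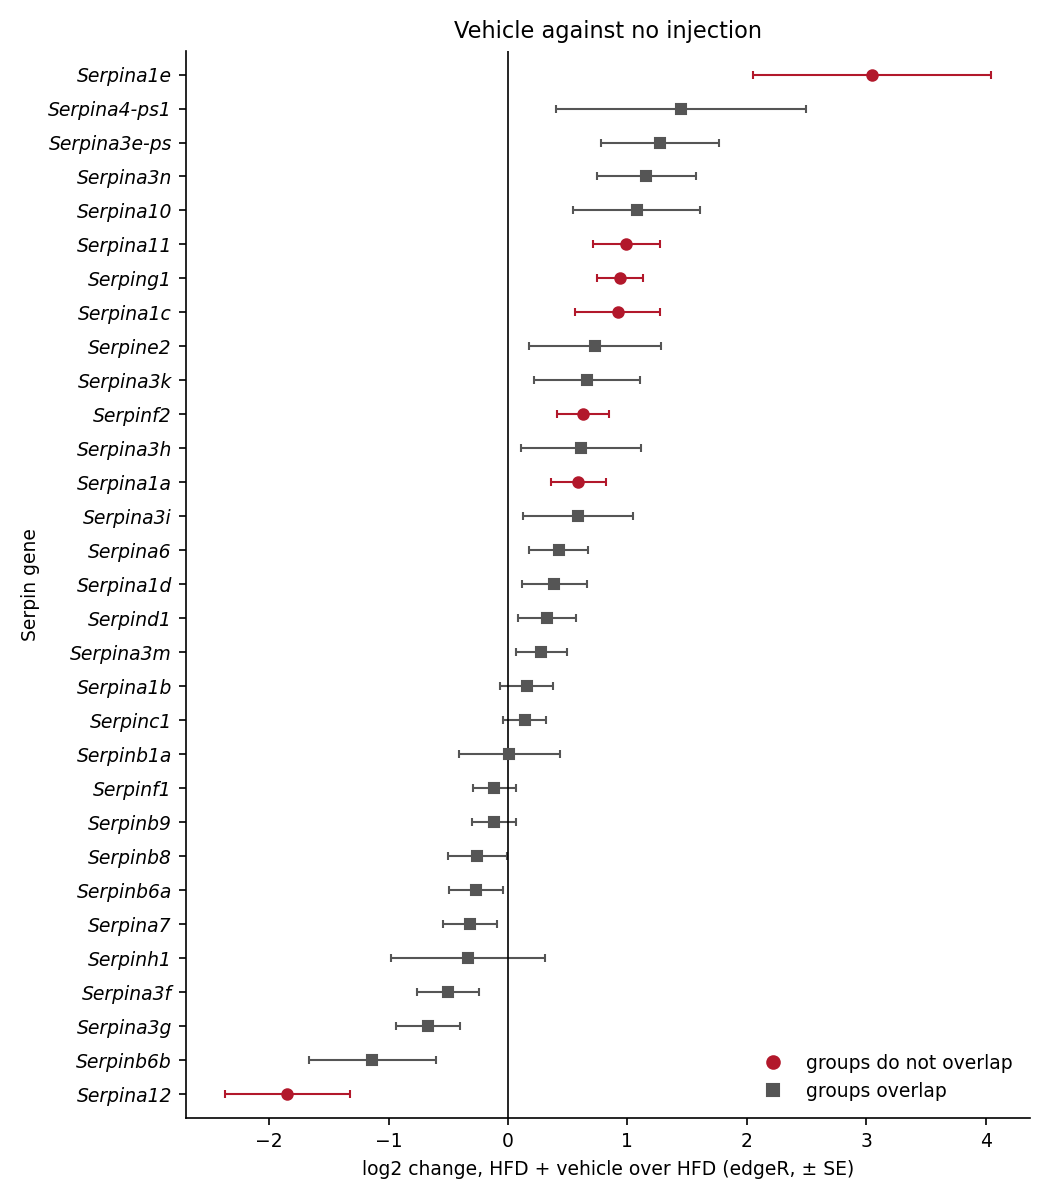
Log2 change of the 31 serpins kept by edgeR's filter between the vehicle and untreated HFD groups (x axis, ± SE), red circles where the 3 samples of each group do not overlap and gray squares where they do. Serpina1e has the largest positive value, 3.05, and Serpina12 the most negative, -1.85; the adjusted p was above 0.05 for all 31.

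Serpina12, vaspin, an inhibitor of kallikrein 7 first described in visceral fat of obese rats, had group means that declined from chow through HFD and vehicle to PCN. Its normalized counts were 491, 578 and 720 in chow, 277, 391 and 512 in HFD, 202, 37.4 and 85.1 in vehicle, and 13.9, 51.5 and 14.9 with PCN. Vehicle samples were all below HFD samples, and PCN samples were all below HFD samples but overlapped vehicle. It fell 3.63-fold from HFD to vehicle (adjusted p = 0.0192 in the authors' deposited table), where edgeR gave 0.258 at a log2 change of -1.85 ± 0.525 (SE), and 0.00251 with no filter on low counts. It was 14.7-fold lower with PCN than in HFD (5.35e-18 in the authors' deposited table, 0.0226 by edgeR), 22.3-fold lower with PCN than in chow (3.39e-11 in the authors' deposited table, 0.00577 by edgeR) and 5.51-fold lower in vehicle than in chow (0.0161 in the authors' deposited table, 0.106 by edgeR). Leaving out PCN replicate 11, the highest of its group, raised the PCN folds to 27.3 and 41.5. Leaving out vehicle replicate 15, also the highest of its group, raised the vehicle fold against chow to 9.74. It moved the edgeR log2 change between vehicle and HFD to -2.67. Other omissions made that change smaller: -1.44 without vehicle replicate 23, -1.61 without HFD replicate 38 and -1.7 without vehicle replicate 55. Chow against HFD and PCN against vehicle were not called, so the part of the low PCN values beyond the vehicle's is not resolved with 3 samples a group.

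Serpina11, an uncharacterised plasma serpin, had 338, 307 and 215 normalized counts in HFD, 696, 348 and 681 in vehicle, and 331, 240 and 198 with PCN. The PCN samples lay below all vehicle samples, 2.24-fold lower (adjusted p = 0.0171 in the authors' deposited table, 0.329 by edgeR), and overlapped the HFD samples. Vehicle was 2.01-fold above HFD with no overlap and was not called by edgeR (adjusted p = 0.258) or in the authors' deposited table (0.0973), but was called by edgeR with no filter on low counts (0.0195) and by a DESeq2 refit (0.0426).

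Serpina4-ps1, a pseudogene related to kallistatin, had the largest fold among the called serpins, with few counts behind it. Normalized counts were 143, 452 and 110 in chow, 11.1, 87.3 and 2.26 in HFD, 173, 14.2 and 105 in vehicle, and 1.67, 1.72 and 0 with PCN. The PCN libraries held 4 reads of it in all, against 295 in vehicle and 607 in chow. Pooled over libraries the ratio was 81.9 for vehicle over PCN (95% exact binomial interval 31.7 to 303, for counting error only) and 181 for chow over PCN (70.2 to 666). In the authors' deposited table the adjusted p values were 5.61e-07 and 6.28e-29, and edgeR gave 0.164 and 0.00846. The ratios of group means were 86.3 and 208, and they moved to 52.7 without vehicle replicate 15, and to 112 without chow replicate 17 or 139 without PCN replicate 27. PCN samples were below all HFD samples too, without a call there. That separation rests on very few reads. HFD replicate 38 held 1 read (2.26 normalized), PCN replicate 11 held 1 (1.72) and PCN replicate 5 held 3 (1.67). Depth scaling alone sets their order. From high to low, the order of samples within HFD (30, 4, 38) and within vehicle (15, 55, 23) was the same as for Serpina1e. In chow it was 17, 8, 19 for Serpina4-ps1 and 17, 19, 8 for Serpina1e. These orders were not particular to the pair. Serpina3k had the order of Serpina1e in chow, HFD and vehicle alike. The HFD order was common in the family. Serpina1a, Serpina1c, Serpina1d, Serpina3e-ps, Serpina3m, Serpina3n, Serpinb1a, Serpind1, Serpine2, Serpinf1, Serpinf2 and Serping1 shared it too.

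Serpine2, protease nexin 1, which inhibits thrombin and urokinase at cell surfaces, had 433, 427 and 405 normalized counts in chow, 103, 179 and 74.7 in HFD, 393, 107 and 103 in vehicle, and 106, 187 and 147 with PCN. Chow samples were tightly grouped and above all others, and vehicle replicate 15 stood near chow while the other 2 vehicle samples were in the HFD range. It fell 3.54-fold from chow to HFD (adjusted p = 1.3e-08 in the authors' deposited table, 0.0486 by edgeR) and was 2.87-fold lower with PCN than in chow (1.37e-10 in the authors' deposited table, 0.0119 by edgeR). Serpinf1, pigment epithelium-derived factor, which inhibits new vessel growth and not proteases, had 10257, 10778 and 11169 in chow, 7569.6, 8316 and 6177 in HFD, 7343, 7698 and 5410 in vehicle, and 7403, 8776 and 5945 with PCN. All 9 samples on HFD were below all chow samples, by 1.46-fold, 1.57-fold and 1.46-fold for HFD, vehicle and PCN (adjusted p = 0.00595, 0.0067 and 0.014 in the authors' deposited table; 0.231, 0.214 and 0.199 by edgeR). Its neighbour Serpinf2 was not called in any comparison with chow.

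Serpinh1, the collagen chaperone HSP47, resides in the endoplasmic reticulum of collagen-making cells and inhibits nothing. It had 324, 226 and 783 normalized counts in HFD and 135, 232 and 672 in vehicle, with 1 high library in each group. HFD replicate 38 also had the highest summed stellate-cell markers (13447), whereas vehicle replicate 55 had 6788, below all 3 HFD libraries; the part of these cells was not tested. Serpini1, neuroserpin, had 3.32 to 11.3 in HFD and 3.85 to 6.07 in vehicle and was too low for edgeR's filter.

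Clade B serpins stay inside cells and guard them against their own proteases. Serpinb1a, an inhibitor of neutrophil serine proteases also made by hepatocytes, had 216, 180 and 154 normalized counts in chow, 77.4, 108 and 54.3 in HFD, 124, 84.9 and 37.4 in vehicle, and 65.7, 77.3 and 41.4 with PCN. Chow samples were the highest of all 12. It fell 2.29-fold from chow to HFD (adjusted p = 0.000965 in the authors' deposited table, 0.119 by edgeR) and was 2.99-fold lower with PCN than in chow (2.47e-07 in the authors' deposited table, 0.0223 by edgeR). Serpinb9, the granzyme B inhibitor, moved the other way, with 131, 116 and 171 in chow, 223, 215 and 233 in HFD, 245, 220 and 155 in vehicle, and 286, 287 and 237 with PCN. It rose 1.61-fold from chow to HFD (adjusted p = 0.0204 in the authors' deposited table, 0.17 by edgeR) and was 1.94-fold higher with PCN than in chow (0.000292 in the authors' deposited table, 0.0382 by edgeR). Every PCN sample was above every HFD sample, though by a narrow margin (237 against 233 at the closest) and with no call. Serpinb6a, Serpinb6b and Serpinb8 were called nowhere, and their edgeR log2 changes between vehicle and HFD were -0.27, -1.14 and -0.26, with overlapping samples.

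**Figure D5:**
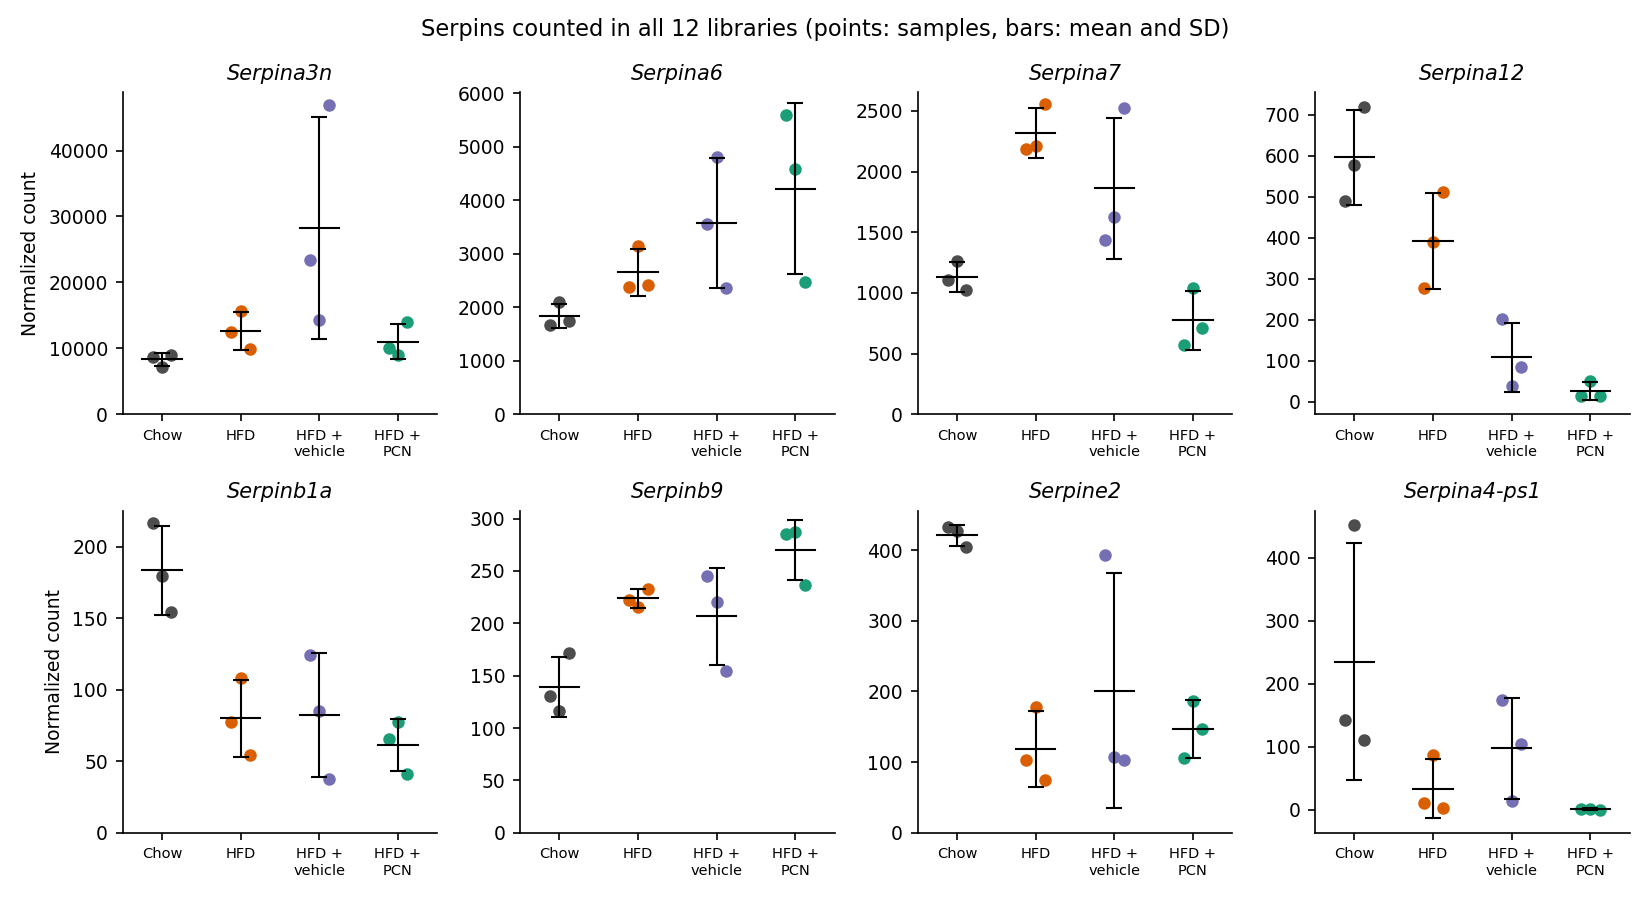
Normalized counts (y axes from 0 or just below) of 8 serpins with counts in all 12 libraries, 1 point per sample with the group mean and SD. Serpina7 rises 2.05-fold from chow to HFD and is lowest with PCN, Serpina12 declines from chow to PCN, Serpine2 averages 421 in chow, and Serpina4-ps1 is at 0 to 1.72 with PCN.

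Of 30 target proteases with a mean count of at least 5, deposited calls numbered 1 higher (F7) and 0 lower in vehicle against HFD, 1 higher (Ctss) and 3 lower (F10, Klkb1 and Proc) in HFD against chow, and 1 higher (Ctsl) and 0 lower with PCN against vehicle. They numbered 4 higher (F10, Masp1, Ctsl and Prtn3) and 0 lower with PCN against HFD, 2 higher (Plg and Pros1) and 0 lower in vehicle against chow, and 4 higher (Pros1, Masp1, Ctsl and Prtn3) and 1 lower (Klkb1) with PCN against chow. These counts stand beside the same background shares of all genes as the serpin counts above. Ctsl, the lysosomal cathepsin L, had 18785 ± 6374 with PCN and 9653 ± 1089 with vehicle (1.95-fold, adjusted p = 0.0205 in the authors' deposited table). Factor X (F10), a target of Serpinc1 and Serpina10, was 4788 ± 337 in HFD and 6246 ± 470 in chow (0.0347 in the authors' deposited table), and plasma kallikrein (Klkb1), a target of Serping1, was 2548 ± 931 and 4420 ± 107 (0.0352).

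Among 26 protease inhibitors of other families, 8 were called higher and 0 lower in vehicle against HFD, 4 and 4 in HFD against chow, 0 and 2 with PCN against vehicle, and 8 and 1 with PCN against HFD. Against chow, 8 were higher and 0 lower in vehicle, and 8 higher and 1 lower with PCN. The inter-α-trypsin inhibitor chain Itih4 was 179708 ± 65344 in vehicle and 42909 ± 7060 in HFD (4.19-fold, adjusted p = 1.25e-10 in the authors' deposited table). Mug1 and Mug2, murinoglobulins that trap proteases in a molecular cage, were the 2 lower with PCN than with vehicle, at 0.569 and 0.54 of the vehicle mean (0.0127 and 0.0124 in that table). Of 32 acute-phase and cytokine-signalling genes, 13 were called higher and 2 lower in HFD against chow, 12 higher and 0 lower in vehicle against HFD, 8 and 0 with PCN against HFD, and 0 higher and 3 lower with PCN against vehicle. Against chow, 17 were higher in vehicle and 14 with PCN, with 0 lower in either. Serum amyloid A1 (Saa1) reached 71802 ± 45992 in vehicle and 5224 ± 1945 in HFD (13.7-fold, adjusted p = 1.37e-05 in the authors' deposited table). Hpx, C3 and Apcs, the plasma haem carrier hemopexin, complement C3 and serum amyloid P, were 2.51-fold, 3.01-fold and 3.9-fold higher in vehicle than in HFD. The median log2 ratio of group means, vehicle over HFD, was 0.791 over the 32 genes of the list, 0.36 over the serpins and 0.0225 over all genes past the mean count. Of 7 plasma carriers outside the family, Hpx rose in HFD against chow and Apom fell, to 0.473 of its chow mean. With PCN against HFD, Hpx and Apom (2.36-fold) were higher and Ttr was lower, at 0.539 of the HFD mean. With PCN against chow, Hpx was higher, and Alb and Ttr were at 0.465 and 0.583 of their chow means. Between PCN and vehicle 0 were called, and in vehicle against HFD or chow only Hpx was, as higher.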

How the data were processed

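The submitters' processing notes name HISAT2, HTSeq and DESeq2 and the build GRCm38 (mm10); versions, strandedness and multi-mapping settings are not given in the sources used here. In 6 tables, 1 per pair of groups, the authors deposited raw counts per gene beside DESeq2 log2 changes (moderated toward 0) with their SE, p and adjusted p. Decimal commas were converted and gene starts raised by 1. The table of vehicle against HFD was complete and was tested with edgeR 4.0.16 (TMM, filterByExpr, quasi-likelihood, Benjamini-Hochberg over 13775 genes), which was also tested on simulated counts. The other 5 list only genes called by the authors, so their deposited adjusted p under 0.05 is the call, and edgeR retested the listed counts with the complete table's dispersion trend over an estimated 25100 to 25879 genes. Size factors were recovered from the deposited means (largest deviation 0.518%). Unused per-sample columns numbered 0. Members and gene lists were chosen with earlier results of these data known. Named were all members called in any comparison and a listed set of well-known ones. The labels do not say more of the samples than their group and number, so p-values measure the spread between these samples. An exact permutation test of 3 against 3 cannot go below p = 0.10. Tests were two-sided.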

Additional observations from a re-analysis of the deposited data

How the results depend on the processing

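Between vehicle and HFD, edgeR called 0 of 31 serpins in the main analysis, with DESeq2's size factors in edgeR and on leaving out any 1 replicate (0 to 0). It called 4 with no filter on low counts (Serpina11, Serpina12, Serpina1e and Serping1), a DESeq2 refit called 3 (Serpina11, Serpina12 and Serping1), and the authors' deposited results called 2; the cause was not tested. The deposited counts of 12, 5, 5, 8 and 9 called serpins for HFD against chow, PCN against vehicle, PCN against HFD, vehicle against chow and PCN against chow fell to 2, 0, 2, 0 and 5 by edgeR on the listed counts, and, leaving out 1 replicate, to 0 to 1, 0 to 0, 0 to 2, 0 to 0 and 2 to 4. With 2 samples in a group the spread is assumed equal to that of the other group. Of 484 single-gene values under an alternative, 463 kept their direction and their side of the threshold. Directions turned only for log2 changes between vehicle and HFD near 0 or carried by 1 library, none of them called: Serpinb1a, 0.01 in the main analysis, was -0.02 with no filter, -0.03 and -0.16 without HFD replicates 4 and 38, and -0.41 and -0.01 without vehicle replicates 15 and 23; leaving out 1 replicate, Serpinb9 ran from -0.26 to 0.05 and Serpinf1 from -0.21 to 0.02 (the upper ends without vehicle replicate 55), Serpine2 from -0.20 (without vehicle replicate 15) to 1.13, and Serpinh1 from -1.25 to 0.34 (without HFD replicate 38), with 0.05 without vehicle replicate 15. Serpina12 moved to -4.77 (PCN against HFD) and -5.37 (PCN against chow) without PCN replicate 11. No paired analysis was possible because the groups share no replicate numbers. Scaling by library totals in the 5 comparisons with called genes only was not run, since those tables hold no library totals. The shallowest library, HFD replicate 38, limits serpins with low counts.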

Other observations

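One serpin below the count threshold was called in all 3 comparisons of PCN with another group and was chosen here after its values were seen. Serpinb1c, a neighbour of Serpinb1a on chromosome 13 (32881434 to 32898211, GRCm38), had raw counts of 6, 2 and 3 in chow, 1, 2 and 0 in HFD, 2, 0 and 0 in vehicle, and 76, 4 and 38 in PCN replicates 5, 11 and 27. Its adjusted p was 0.000722 for PCN against vehicle, 4.68e-05 for PCN against HFD and 0.00092 for PCN against chow in the authors' deposited table. Pooled over libraries and corrected for depth, the PCN to vehicle ratio was 53.1 (95% exact binomial interval 14.4 to 444) and the PCN to HFD ratio 42.9 (14.3 to 211), intervals that cover counting error only. Its PCN samples were all above its vehicle samples, whereas Serpinb1a had 65.7, 77.3 and 41.4 normalized counts with PCN, inside its vehicle range.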
